A study of Canis lupus familiaris with 20 samples.

Results

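Canine blood monocyte-derived macrophages that had been grown with mammary cancer cells were compared with macrophages grown alone. The comparison rested on the 10 arrays whose titles name the macrophages, out of 20 arrays in all. The other 10 arrays held the cancer cells of the same cultures. Each macrophage array carried co-cultured macrophages in one dye and mono-cultured macrophages in the other, and the arrays formed 5 dye-swap pairs, 1 for each cancer line. The values of a pair were averaged, so that each co-culture counted once (n = 5).

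The macrophages came from CD64-positive blood monocytes of healthy dogs. They were layered on cancer cells that had been stained with the dye CMTMR, and after 72 h the mixture was trypsinised and the unstained cells were sorted as the macrophages. The mono-cultured macrophages were scraped instead, so co-culture cannot be told apart from the effects of trypsin and sorting. The lines were CMT-U27, from a simple carcinoma, CMT-U309, from a spindle-cell tumour, P114, from an anaplastic carcinoma, and CMT-W1 and CMT-W2, from adenocarcinomas. The labels describe the arrays of a pair as biological replicates, whereas the methods describe a dye swap. How many mono-cultures of macrophages were grown is not given in the sources used here. If 1 mono-culture served all lines, the 5 ratios share it, and the p-values measure the spread between co-cultures.

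Macrophages are phagocytes that sense microbes through Toll-like receptors, take up debris and iron through scavenger receptors such as CD163, break them down in lysosomes and show peptides to T cells on MHC class II molecules. In tumours they are known for releasing chemokines and growth factors and for shifting between inflammatory and tissue-repair programmes in answer to their neighbours. The cancer lines, as epithelial or spindle cells, are built around junctions, caveolae and a dividing cell cycle.

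Of the spots on a macrophage array, 54.5% to 74.7% were well above background in the co-culture channel and 56.3% to 71.0% in the mono-culture channel, and 0 were saturated. The log2 ratios of dye-swap arrays correlated across probes at r = 0.88 to 0.94, and those of arrays from different co-cultures at 0.53 to 0.83. The co-cultures with CMT-U27, CMT-U309 and P114 resembled each other (r = 0.78 to 0.82 over 22800 genes), as did those with CMT-W1 and CMT-W2 (r = 0.84). The CMT-W1 co-culture stood farthest from those with CMT-U27, CMT-U309 and P114 (r = 0.57 to 0.58). Signals of the mono-cultured macrophages correlated across arrays at 0.976 to 0.990. Genes are not independent, so these correlations are descriptions. Only 790 of the genes tested could be given a symbol, and the named genes below come from those.

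All values below are log2 ratios of co-cultured over mono-cultured macrophages unless called a level, which is a log2 processed signal and can be compared only within a gene. Of 25708 genes tested, 12306 (47.9%) changed at an adjusted p under 0.05 in limma's test, 5339 upwards (20.8%) and 6967 downwards (27.1%). At least a 3-fold change on every measured array was also met by 1660 genes (6.46%), 1185 up and 475 down. Among genes that changed and moved the same way in all 5 co-cultures, 3920 rose and 6141 fell. The median gene stood at -0.18, against -0.01 when background was recomputed and each array was loess-normalised, so small negative values carry that shift. Under the recomputed background with centring on the median and no loess, 6715 genes changed and 164 also met the 3-fold rule.

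Markers of macrophages fell together. CD163, the haemoglobin scavenger receptor, had ratios of -4.09 with CMT-U27, -1.78 with CMT-U309, -4.73 with P114, -8.61 with CMT-W1 and -8.03 with CMT-W2. Its mean was -5.45 ± 2.85 (SD, n = 5 co-cultures; adjusted p = 0.0023). The complement C5a receptor gene C5AR1 was lowest of all named genes, at -4.29, -3.18, -5.41, -8.27 and -7.51 in the same order of lines (mean -5.73 ± 2.14, SD, n = 5; adjusted p = 0.000597). In both genes the CMT-U309 co-culture kept the highest level and the CMT-W1 and CMT-W2 co-cultures the lowest. The lectin receptor CD209 (-4.93 ± 0.82), the Fc receptor CD64 gene FCGR1A (-3.97 ± 1.46) and the scavenger receptor CD36 (-3.80 ± 2.20) also fell, each in all 5 co-cultures.

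All 10 of the 10 macrophage markers fell, with a median of -3.77 against -0.18 over all genes. Values are given here for 9 of them. They included the adhesion receptor ADGRE1 (-2.39 ± 1.12), the signalling adaptors FCER1G (-3.46 ± 0.99) and TYROBP (-2.28 ± 0.63), and CD4 (-1.26 ± 0.96), which dog macrophages carry. CD4 was higher in 1 co-culture, at 0.34 with CMT-U27. Every marker was well above background on all 10 arrays in the mono-cultures. In the co-cultures CD163, ADGRE1, FCGR1A, FCER1G, TYROBP and CD4 still were, C5AR1 was on 9 arrays, CD209 on 8 and CD36 on 6. Their summed linear signal was 469127 to 623089 in the mono-cultured macrophages, 40610 to 149763 in the co-cultured macrophages and 1870 to 20972 in the mono-cultured cancer lines, ranges that do not overlap. The sum in the cells sorted as macrophages thus lay above the lines in every co-culture and below mono-culture. In co-culture most of it was TYROBP, at a log2 level of 14.72 to 16.33. With CMT-W1, C5AR1 (5.90 against 6.08) and CD4 (8.29 against 9.74) lay below the line's own level. CD4 did too with P114 (7.72 against 8.04), while the other markers given lay above their line throughout. In these bulk samples fewer cells of a type and less RNA per cell cannot be told apart.

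**Figure D1:**
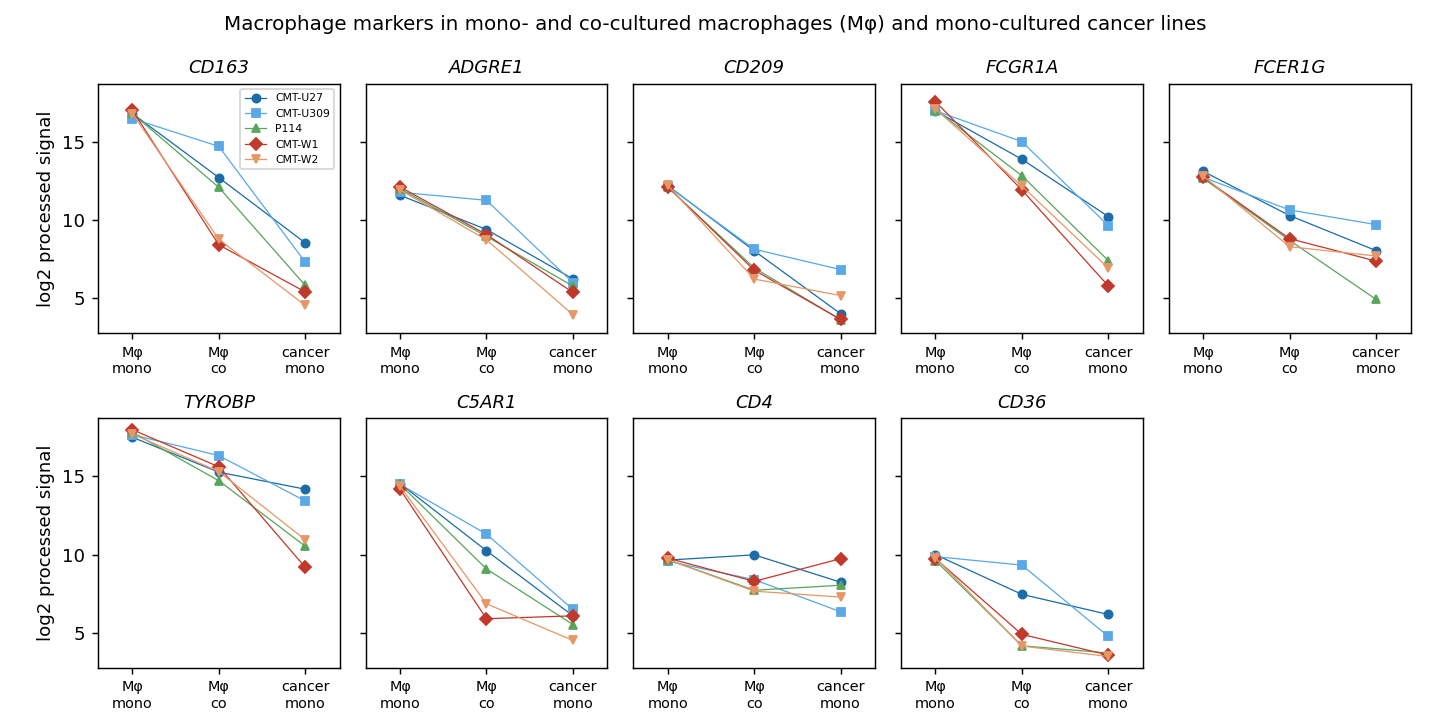
Log2 processed signal (vertical axis) of 9 macrophage markers in mono-cultured macrophages, co-cultured macrophages and the mono-cultured cancer line, with 1 line of points for each of the 5 co-cultures. Each marker's mean was lower in the co-cultures, between the mean of the mono-cultured macrophages and that of the cancer lines, and the CMT-U309 co-culture kept the most CD163, whose ratio there was -1.78.

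Markers of other cells were read over whole lists. The summed signal of the epithelial markers was 23523 to 25758 in mono-cultured macrophages, 17855 to 43905 in the co-cultures and 29155 to 43781 in the lines. That sum follows KRTCAP2, a subunit of oligosaccharyltransferase and no keratin, whose log2 level was 14.26 to 14.46 in mono-culture. Of 8 tested members 3 rose, among them OCLN and TJP1, which encode tight-junction proteins, KRT2 fell, and 4 did not pass the test. KRT1, KRT71, DSG1 and DSG3 were too dim to be tested, with 0 to 4 of 10 arrays above background in either channel. The mesenchymal list summed to 24674 to 26779 in mono-culture, 7380 to 34911 in co-culture and 3841 to 95413 in the lines, with SNAI2 (3.04 ± 1.27) up, PDPN (-3.12 ± 2.28) down and DES not above background on any array. The lymphocyte list summed to 1647 to 2960 in mono-culture and 745 to 6995 in co-culture. The granulocyte, mast cell and erythroid list summed to 96363 to 127406 in mono-culture and 1978 to 25691 in co-culture. Most of that sum was S100A8, a calcium-binding protein that monocytes share with neutrophils, at a log2 level of 16.54 to 16.95 in mono-culture. It fell by 4.58 (SD 2.14), while the list's median ratio was -0.03, with 2 of 7 tested members up and 2 down. The part of these cells in the results was not tested.

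The levels in the co-cultured macrophages were also set beside those of mono-cultured cancer lines, which were measured on other arrays. Of the 1185 genes that rose 3-fold, 1158 (97.7%) had a higher level in the mono-cultured lines than in mono-cultured macrophages. Their median level was 5.69 in mono-cultured macrophages, 9.63 in co-cultured macrophages and 9.82 in the lines. Of the 475 genes that fell 3-fold, 0 were higher in the lines, and their median levels were 11.1, 7.98 and 7.04. Over all genes tested 46.2% were higher in the lines, and among genes that were not called 45.1%. Both the ratio and the level difference contain the mono-cultured macrophage signal, so they are not independent.

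Genes chosen in the other mono-cultures were followed next. For each line, genes were taken that differed by at least 16-fold between the other 4 mono-cultured lines and their mono-cultured macrophages. The median line-high gene stood in the co-cultured macrophages at 110% of the cancer level with CMT-U27 (145 genes), 73.0% with CMT-U309 (139), 88.4% with P114 (122), 42.1% with CMT-W1 (174) and 25.0% with CMT-W2 (142), against 2.07% to 3.41% in mono-cultured macrophages. The median macrophage-high gene kept 22.7% of its mono-culture level with CMT-U27 (390 genes), 33.0% with CMT-U309 (320), 7.47% with P114 (286), 8.88% with CMT-W1 (316) and 11.1% with CMT-W2 (274), against 0.927% to 3.17% in the lines. In all 5 co-cultures both sets lay between the mono-cultured macrophages and the line, except the line-high genes with CMT-U27, which stood above the line. The genes had to pass the filter on dim probes, so line-high genes dim in mono-cultured macrophages entered mainly where the co-culture channel was bright. Levels carry no error here beyond the spread over co-cultures, and the part of RNA from cancer cells in these results was not tested.

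**Figure D2:**
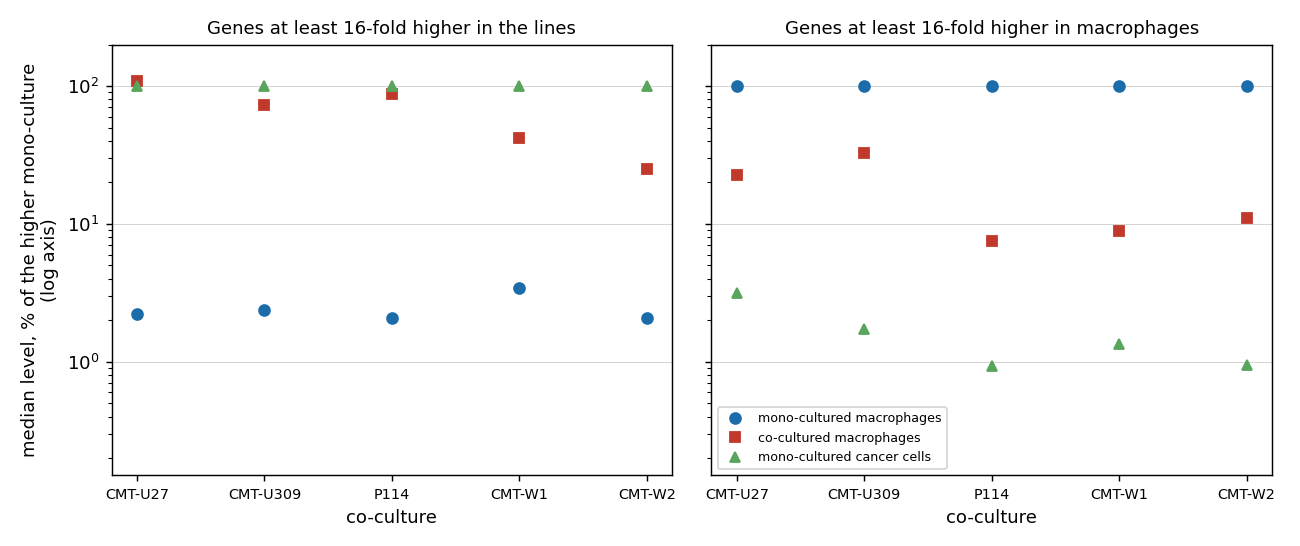
Median level, as a percentage of the higher mono-culture on a log axis, of genes at least 16-fold higher in the other 4 cancer lines (left) or in mono-cultured macrophages (right), for each co-culture. Co-cultured macrophages (squares) stood at 25.0% to 110% for the line-high genes and at 7.47% to 33.0% for the macrophage-high genes.

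The co-cultures also differed from each other along the lines they had been grown with. Each co-culture's levels and each line's levels were expressed as deviations from the mean of 5 and correlated across 25708 genes. Correlations with the own line were 0.73 in the CMT-W1 co-culture, 0.57 in P114, 0.44 in CMT-U27, 0.25 in CMT-U309 and 0.18 in CMT-W2, each the highest of that co-culture's 5 values. The r with other lines ran from -0.59 to 0.38. For CMT-W2 the next highest was 0.11, so its own line stood little above another.

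**Figure D3:**
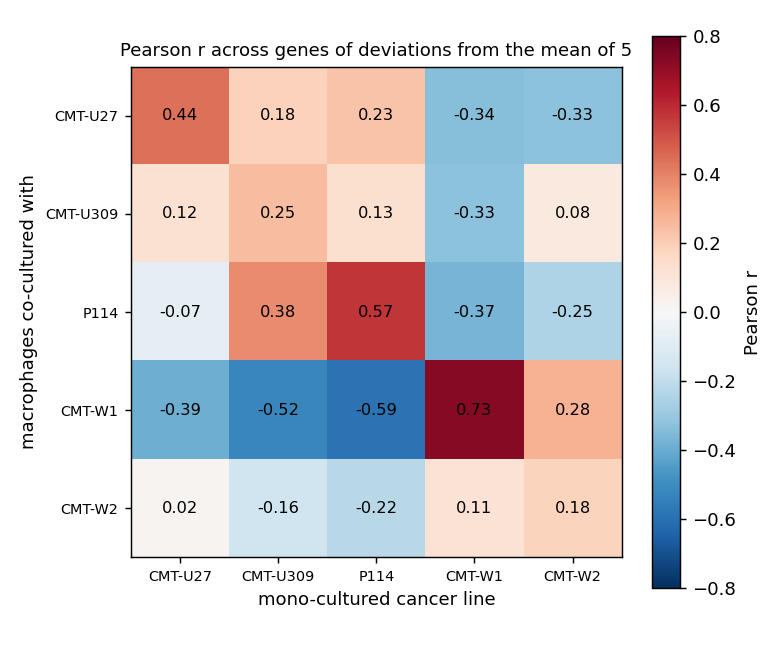
Pearson r across 25708 genes between deviations of the co-cultured macrophages (rows) and of the mono-cultured cancer lines (columns) from their means of 5. The diagonal, own line, held the highest value of each row, from 0.18 to 0.73.

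Caveolin genes led the genes that rose. CAV1, the scaffold of caveolae, had ratios of 6.79, 5.02, 5.21, 6.14 and 6.0 in the order of lines used for CD163, with a mean of 5.83 ± 0.72 (SD, n = 5; adjusted p = 4.01e-05). It was well above background on only 5 of 10 arrays in mono-culture, and its mean level was 6.43 there, 12.27 in co-culture and 14.24 in the lines. After loess with recomputed background the mean ratio of CAV1 was 3.48. CAV2 rose by 3.99 ± 2.49 but by only 0.47 with CMT-W1. The gap-junction gene GJA1 was measured in 3 co-cultures, at 3.12, 5.54 and 4.10 with CMT-U309, P114 and CMT-W1. In the list of caveolae and gap junctions 3 of 4 tested genes rose (median 4.12).

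All 3 tested members of the Wnt list rose, and none of them encodes a Wnt ligand. Of 6 tested proliferation genes 4 rose, beside 20.8% of all genes called up. The transcription factor gene MYC had ratios of 4.53, 3.85, 4.88, 5.38 and 4.27, a 23.9-fold mean rise (4.58 ± 0.58; adjusted p = 5.23e-05). The Wnt list (median 3.46) held MYC, the receptor gene FZD6 (3.46 ± 1.05, n = 4) and CTNNB1, the β-catenin gene (1.46 ± 0.88, n = 4). CTNNB1 was not called without CMT-U27 (adjusted p = 0.0595) or without P114 (0.0594), and its other probes lay at -0.15 to 0.83. Among the proliferation genes that rose were the repair genes BRCA2 (3.13 ± 0.79, n = 4) and BRCA1 and the spindle gene ASPM. BIRC5 at -0.23 (adjusted p = 0.719) and CCND1 at 0.57 (0.22), did not pass. ASPM and BRCA1 were never well above background in mono-culture. Both thus passed the filter only through the co-culture channel and could hardly be called down. ASPM was at least 7.21-fold higher in co-culture (mean levels 8.01 and 4.79) and BRCA1 at least 2.69-fold (6.45 and 4.42). The list's median of 3.21 was 0.84 after loess with recomputed background, in which ASPM was not called (adjusted p = 0.0793).

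Genes that are dim in mono-culture were measured only in co-cultures where the co-culture channel was bright, so a mean over 3 or 4 values leaves out the co-cultures where neither culture was bright. This held for several of the highest ratios. The stromelysin gene MMP3 stood at 6.65, 8.73, 3.45 and 8.01 with all lines but CMT-U27. The vasoconstrictor gene EDN1 (5.68 ± 1.06), the ligand genes KITLG (4.97 ± 0.74) and PDGFA (3.47 ± 0.59) and the tight-junction gene OCLN had 3 values each. After loess with recomputed background, MMP3 (adjusted p = 0.0526), EDN1 (0.109), KITLG (0.12) and OCLN (0.0965) were not called. OCLN was never well above background in mono-culture, where its measured mean level was 3.76 against 6.28, at least 2.66-fold. The urokinase gene PLAU, bright in both, rose by 2.48 ± 1.75.

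Cytosolic ribosomal protein genes rose. RPS18 had ratios of 3.38, 3.16, 2.94, 4.17 and 4.06 (3.54 ± 0.55; adjusted p = 8.89e-05), and RPL23 (3.05 ± 0.77) and RPL27 (2.62 ± 0.71) rose too. All 4 of 4 genes in the list rose, with a median of 3.07. The co-culture levels of RPS18, RPL23 and RPL27 were above those in the mono-cultured lines as well, by the means, for example 18.71 against 17.82 for RPS18, whose mono-culture level was 15.16. They stood highest with CMT-W1 and CMT-W2. Among single cytoskeletal genes, cytoplasmic actin ACTG1 rose by 3.25 ± 0.55, ACTB at 0.72 did not pass the test (adjusted p = 0.108) and the myosin heavy chain gene MYH7 fell (-4.72 ± 0.67; adjusted p = 5.65e-05), while 2 other probes of MYH7 lay at -0.61 and -0.18. Probes for ribosomal proteins, actin and GAPDH can also bind RNA of near-identical copies, which these values cannot separate.

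ABCC5, a nucleotide and drug exporter, had ratios of 5.07, 5.52, 6.96, 6.28 and 5.04 in the 5 co-cultures (5.77 ± 0.83). It was well above background on only 3 of 10 arrays in mono-culture (mean level 4.63), and its mean ratio was 2.10 after loess with recomputed background. The other drug transporters moved the opposite way where they passed the test, with 4 of 6 down, among them ABCA4 (-1.33 ± 0.20), SLCO1B3 (-1.01 ± 0.31) and ABCC1 (-0.81 ± 0.28), and ABCB1 at 0.02 was not called. ABCC1 was not called without CMT-U27 (adjusted p = 0.0616) or without P114 (0.0602). The repair endonuclease gene APEX1 (3.64 ± 0.69), the selenoprotein gene SELENOH (3.59 ± 0.79) and the apoptosis-related gene UACA (3.65 ± 1.03) rose in all 5. CGN, which encodes the tight-junction protein cingulin, rose by 4.25 ± 2.16, most with CMT-U27 (6.86) and least with CMT-U309 (1.18). Another probe of CGN averaged 1.32, and the main probe was not called after loess with recomputed background (adjusted p = 0.0682).

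**Figure D4:**
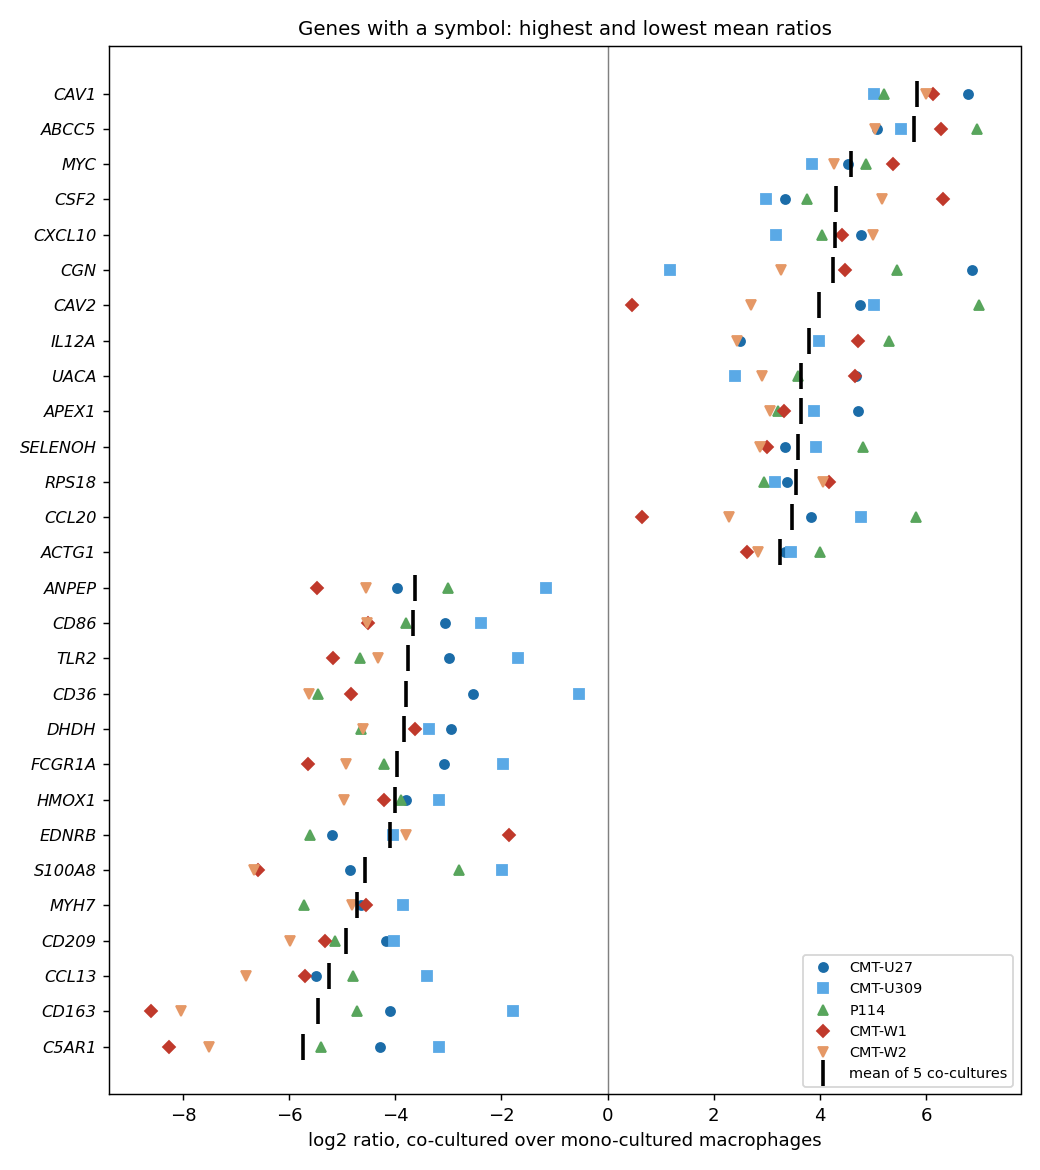
Log2 ratios of co-cultured over mono-cultured macrophages (horizontal axis) for the highest and lowest genes by mean ratio among those with a symbol that changed and moved one way in all 5 co-cultures. Points are the 5 co-cultures and bars their means, from 5.83 for CAV1 to -5.73 for C5AR1, and CMT-U309 points lie nearest 0 for most genes that fell.

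Secreted signals did not move as a block. CSF2, the gene of the growth factor GM-CSF, had ratios of 3.34, 2.98, 3.76, 6.31 and 5.17 (4.31 ± 1.39; adjusted p = 0.000395), but was not called in the methods' t-test (adjusted p = 0.080). In the same order of lines its levels were 11.50, 10.40, 14.58, 18.72 and 15.85 in co-cultured macrophages, 8.17, 7.42, 10.82, 12.41 and 10.68 in mono-cultured macrophages and 5.75, 7.84, 11.91, 13.16 and 12.09 in the mono-cultured lines. CSF2 was thus higher in the co-culture than in either mono-culture in all 5 cases, by at least 2.57 on the log2 scale. Only 5 genes of all those tested were at least 4-fold above both mono-cultures throughout, and CSF2 was the only one with a symbol. None was that far below both.

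CXCL10, an interferon-induced attractant of T cells, rose by 4.78, 3.17, 4.04, 4.41 and 5.00 (4.28 ± 0.72; adjusted p = 7.78e-05). Its mean level was 7.06 in mono-cultured macrophages, 11.34 in co-culture and 5.85 in the lines, where it was above background on 4 of 10 arrays. The T-cell attractant CCL20 rose by 3.82, 4.78, 5.81, 0.64 and 2.29, least with CMT-W1. CCL7, a monocyte attractant, rose by 4.43 ± 1.55 in the 4 co-cultures where it was measured. CCL13, from the same family, fell by 5.50, 3.40, 4.80, 5.71 and 6.81 (mean -5.24 ± 1.26; adjusted p = 0.00014). Of 13 tested chemokine ligands, out of 20 on the array, 5 rose and 2 fell, with CCL17 (1.44 ± 0.44, n = 4) and CCL27 (1.88 ± 0.73) the remaining genes that rose and CCL8 (-2.24 ± 2.38) the other that fell.

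The chemokine ligands also split the co-cultures. Their median was 1.31 with CMT-U27, 2.28 with CMT-U309 and 1.84 with P114, and -2.18 with CMT-W1 and -0.21 with CMT-W2. CXCL8, the neutrophil attractant interleukin 8, followed this pattern with 1.10, 2.86, 4.18, -4.78 and -0.57 (0.56 ± 3.48; adjusted p = 0.702), while its other probes averaged -0.77 to -0.45 and its mean was -0.08 with median centring and no loess. CCL2 (-0.03, 1.11, -1.08, -5.03 and -4.32) and CCL3 (2.96, 3.37, 1.65, -1.20 and -0.33) were lowest with the same lines and did not pass the test.

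Of 23 tested cytokines 8 rose and 6 fell, beside 20.8% up and 27.1% down over all genes. Their median was -0.04, and 0.14 after loess with recomputed background. IL12A, a subunit of interleukin 12, rose by 3.79 ± 1.30, with 2.50, 3.98, 5.30, 4.72 and 2.43. IL6 rose by 3.32 ± 1.71 in 4 co-cultures (adjusted p = 0.00439). IL10, which restrains inflammation, fell in all 5 (-1.35 ± 0.30), as did IL18 (-1.47 ± 0.62) and IL15 (-2.68 ± 1.86). TNF, at 0.32 ± 0.49 (adjusted p = 0.325), did not pass the test. Interferon beta, IFNB1, was never well above background in mono-cultured macrophages or in the lines. Measured with CMT-U27, CMT-U309 and P114, it was at least 2.95-fold higher in co-culture (mean levels 6.43 and 4.07), and was not called after loess with recomputed background (adjusted p = 0.101). Of 6 interferon-stimulated genes 0 rose and 3 fell, OAS3 (-1.05 ± 0.54), TNFSF10 (-1.11 ± 0.66) and OAS1.

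Among chemokine receptors 0 rose and 5 of 7 fell (median -1.97), among them CCR1 (-3.36 ± 0.91), the scavenging receptor ACKR3 (-3.08 ± 2.45), CXCR3 (-1.97 ± 0.59) and CCR4. Of 7 Toll-like receptors 0 rose, 3 fell and 4 did not pass, beside 27.1% of all genes called down. The list's median of -1.38 was -0.87 after loess with recomputed background and -0.74 with median centring in its place. Those that fell were TLR2 (-3.77 ± 1.41), which binds bacterial lipoproteins, TLR4 (-3.11 ± 1.20), which binds endotoxin, and TLR7 (-1.79 ± 1.25), a sensor of single-stranded RNA that stood at 0.06 with CMT-W2. Cytokine receptors went both ways. IL13RA2, the decoy receptor for interleukin 13, was never well above background in mono-culture and was at least 6.19-fold higher in co-culture (mean levels 7.50 and 3.86), whereas IL2RA (-1.37 ± 0.80) and LIFR (-1.30 ± 0.31) fell. The endothelin receptor gene EDNRB fell by 4.10 (SD 1.47), while its ligand EDN1 rose.

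Many lysosomal genes fell. Of 22 tested members 0 rose and 14 fell, with a median of -1.47 that was -0.74 after loess with recomputed background. The cysteine proteases CTSK (-1.43, -0.15, -2.90, -5.73 and -5.36) and CTSS (-1.03, -0.23, -3.12, -5.59 and -4.64) were lowest with CMT-W1 and CMT-W2 and near 0 with CMT-U309. The metal transporter gene SLC11A1 had the same order (-1.43, -0.57, -1.78, -6.06 and -5.37) and was not called without CMT-W2 (adjusted p = 0.0506). PPT1, which removes fatty acids from proteins, fell by 2.28 (SD 0.82) and cathepsin D, CTSD, by 2.13 (SD 0.90). Of 3 phagocyte oxidase genes 2 fell, among them CYBA (-1.06 ± 0.65), which had no call when P114 was left out (adjusted p = 0.0592), and CYBB at -1.34 (adjusted p = 0.1) was not called.

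Of 12 tested stress and heat shock genes 3 rose and 4 fell, beside 20.8% up and 27.1% down over all genes. HMOX1, which degrades haem, had ratios of -3.81, -3.18, -3.90, -4.21 and -4.97 (-4.01 ± 0.65; adjusted p = 7.84e-05). Its mean level in co-culture, 8.72, was close to that of the lines, 8.93. The ferritin chains FTH1 (-2.43 ± 1.37) and FTL (-1.28 ± 0.46) fell too. In the same list the chaperones HSPA4 (2.22, 1.94, 1.93, 2.49 and 2.09; 2.14 ± 0.23) and HSP90B1 (1.52 ± 0.71) and the superoxide dismutase SOD1 (1.47 ± 0.26) rose, and the last of those that fell was catalase, CAT. HSPA4 had the smallest spread of these genes.

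Antigen presentation showed different behaviour in its parts. The costimulatory ligands CD86 (-3.06, -2.39, -3.80, -4.52 and -4.53) and CD80 (-2.23, -1.45, -3.69, -1.73 and -0.82) fell. The class II genes did not pass the test but split the co-cultures alike. The α chain gene DLA-DRA stood at 2.47, 0.28, -2.25, 1.55 and 3.57 (1.12 ± 2.24; adjusted p = 0.238) and DLA-DQB1 at 2.83, 0.82, -1.57, 1.74 and 3.80 (adjusted p = 0.0974). HLA-DRB1 (2.30, -0.11, -2.37, 0.42 and 2.4) and DLA-DQA1 (2.55, -0.26, -1.99, 0.63 and 2.4) had the same lowest co-culture, P114. Of 9 genes of class II and costimulation 0 rose and 2 fell, and the list's median was 1.47 with CMT-U27, -0.11 with CMT-U309, -1.99 with P114, 0.63 with CMT-W1 and 2.4 with CMT-W2. Class II genes are related in sequence and probes may share RNA between them. In class I, TAPBP, a loader of peptides, fell (-0.99 ± 0.26) and 0 of 7 rose.

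Growth control genes were mixed. The cyclin-dependent kinase inhibitor gene CDKN1B (-1.72, -1.91, -1.81, -1.97 and -1.47) and the pro-apoptotic gene BAX (-1.53 ± 0.60) fell, CASP9 fell by 0.99, and the anti-apoptotic gene BCL2 rose (2.38 ± 0.76), and in all 1 of 10 rose and 4 fell. In the hypoxia and glycolysis list 4 of 6 rose (median 1.24), among them the vasodilator peptide gene ADM (1.49 ± 0.71) and GAPDH (1.46 ± 0.43), while the angiogenic factor VEGFA at -0.40 (adjusted p = 0.21) and TPI1 at 0.43 were not called. Other probes of GAPDH lay at 0.03 to 1.34, and with median centring and no loess it was not called (adjusted p = 0.173). In the matrix list 4 of 12 rose and 2 fell, the proteoglycan gene BGN (3.0 ± 0.66), COL9A2 (2.82 ± 0.56, n = 3) and COL7A1 among those that rose. COL7A1 was not called without CMT-U309 (adjusted p = 0.0568). Beside the list counts of this paragraph, 20.8% of all genes were called up and 27.1% down. The prostaglandin synthase gene PTGES2 rose (2.14 ± 0.36) and the prostaglandin receptor gene PTGER4 fell (-1.47 ± 0.97). PTGES2 was well above background on 5 of 10 arrays in mono-culture. It kept its call in every alternative, with a mean as low as 0.48.

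**Figure D5:**
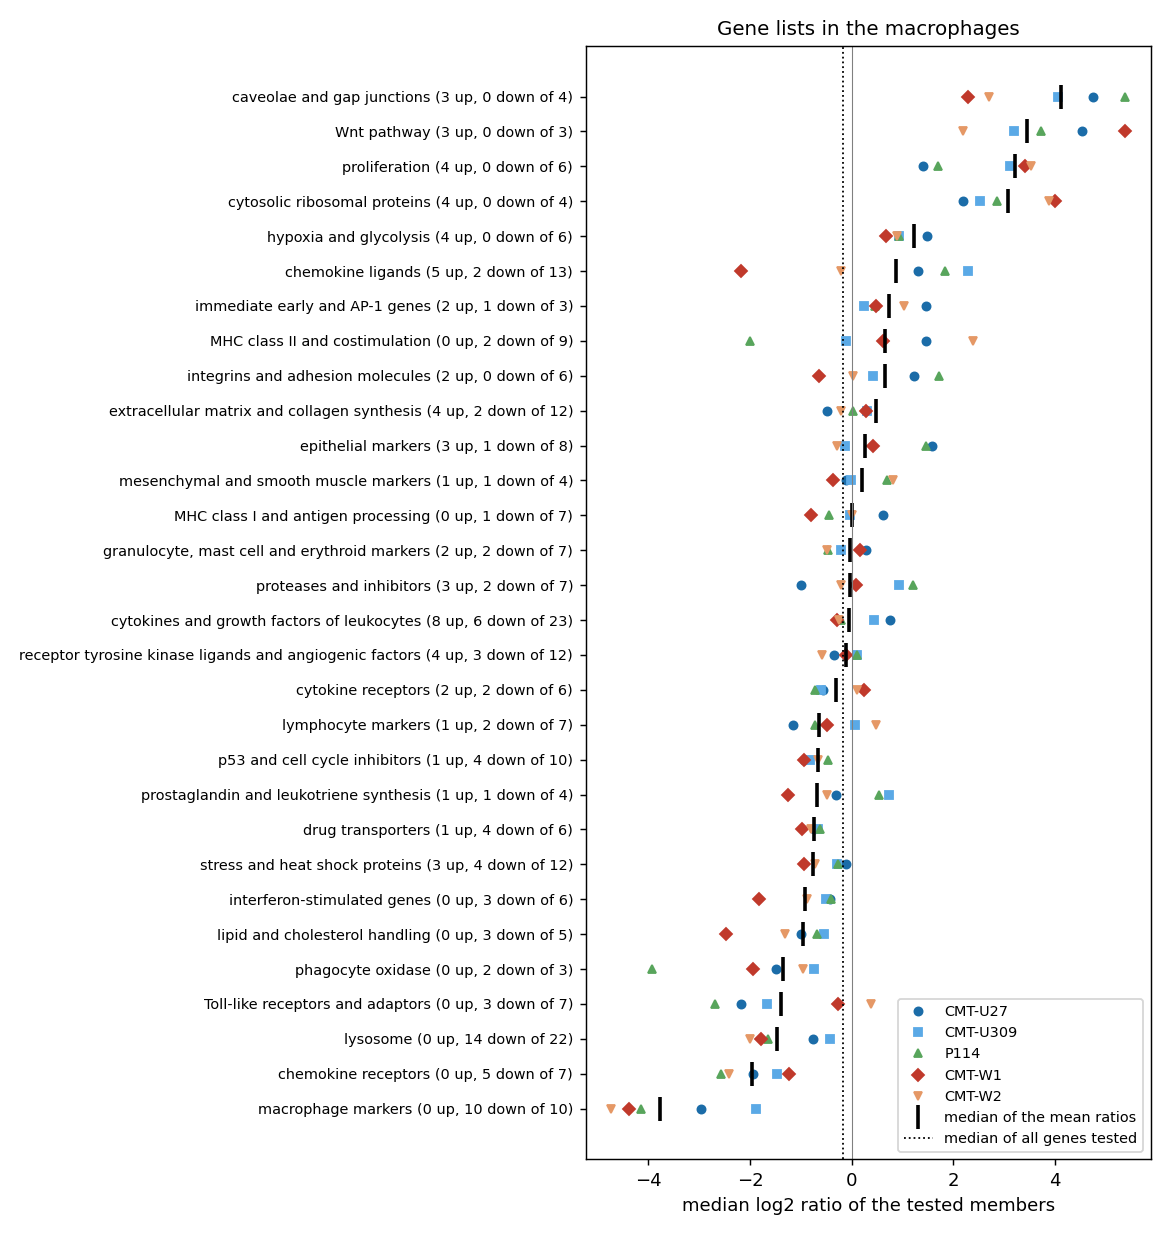
Median log2 ratio (horizontal axis) of the tested members of each gene list, by co-culture (points) and of the members' mean ratios (bars), with the numbers called up and down in brackets. The dotted line is the median of all genes, -0.18, and the lists run from caveolae and gap junctions at 4.12 to macrophage markers at -3.77.

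Some calls were lost when 1 line was left out, 12 of them in at least 3 of the 5 such fits. These fits hold fewer co-cultures, so such losses do not show that a call depended on a single one. All 12 also lost the call in an alternative that kept all 5 co-cultures. In limma's fit of the 10 arrays with a dye term, adjusted p was 0.38 for SREBF1, 0.245 for KIT and 0.212 for FOSB. It was 0.0801 for ELANE and 0.0612 for CA9. Of 19 alternatives SREBF1 lost the call in 12 and CA9 in 10. The hypoxia gene CA9 (1.43 ± 1.43, another probe at 4.81) had an adjusted p of 0.122 to 0.128 without CMT-U27, P114 or CMT-W2. CAT (-1.69 ± 1.57) had 0.0675 to 0.0856 without CMT-U309, P114 or CMT-W1, and the glucose transporter SLC2A1 (1.04 ± 0.77) had 0.0558 to 0.0889 without any line but CMT-W2. KIT, the receptor of KITLG (1.5 ± 1.15), had 0.0516 to 0.0595 without CMT-U27, CMT-W1 or CMT-W2. OAS1 (-0.87 ± 0.61) had 0.0525 to 0.0826 without any line but CMT-W1, NFKB1 (0.74 ± 0.50) had 0.0584 to 0.15 without any line but CMT-W1, and FOSB (-0.80 ± 0.23) had 0.0535 to 0.0672 without CMT-U27, CMT-U309 or P114. SREBF1 (-0.96 ± 0.87) had 0.0525 to 0.0925 whichever line was left out.

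Markers of lymphocytes and granulocytes were among these. The B-cell marker MS4A1 (2.52 ± 2.78) stood at 5.07 and 5.83 with CMT-W1 and CMT-W2 and at -0.25 to 1.72 elsewhere, and its adjusted p was 0.0779 to 0.149 without CMT-U309, CMT-W1 or CMT-W2. The T-cell marker CD8A (-0.64 ± 0.31) had 0.0969 to 0.158 without any line but CMT-W1. The natural killer cell receptor KLRD1 (-1.74 ± 1.83) had 0.0954 to 0.119 without CMT-U27, P114 or CMT-W1, and the neutrophil elastase gene ELANE (1.01 ± 0.52) had 0.0865 to 0.108 without CMT-U309, P114 or CMT-W2. PLA2G7, a secreted lipase of macrophages (-2.35 ± 1.88), was not called without CMT-W2 (adjusted p = 0.0537). SREBF1 and NFKB1 each had another probe with the opposite sign, at 0.77 and -0.49. Without the filter on dim spots, 30 of 104 named genes were no longer called, among them CTSK (adjusted p = 0.0726), CTSS (0.0731), SLC11A1 (0.0816), ACKR3 (0.0763), PDPN (0.0613), TLR7 (0.0543), FZD6 (0.0707), CCL7 (0.0951), PLAU (0.0558), BRCA1 (0.101) and IL13RA2 (0.0534), each with an unchanged direction.

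The spread between co-cultures was itself large for some genes. The median SD over co-cultures was 0.633, and 615 genes had an SD above 2. Of the 496 of these that were measured in all 5, the CMT-W1 co-culture held the value farthest from the others for 218 (44.0%), P114 for 94, CMT-U27 for 74, CMT-U309 for 64 and CMT-W2 for 46. F3, tissue factor, which starts coagulation, ranged widest among named genes, at 2.18, 2.64, 5.86, -4.33 and -2.28 (0.81 ± 4.08; adjusted p = 0.63). TMEM47 (4.27, 2.05, 2.62, -4.82 and -2.20) and CLU, the chaperone clusterin (3.58, 1.95, 2.38, -3.74 and -2.4), split the co-cultures the same way. Their other probes averaged 2.49 to 4.16 for TMEM47 and -0.27 to 0.23 for CLU. HSD11B1, which activates cortisone, was high only with P114 (4.49, against -3.76 to -2.10). No test of CMT-W1 and CMT-W2 against the rest was made, since that split was seen in these values.

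The macrophage ratios were last set against those of the cancer cells from the same co-cultures. Of 23765 genes with both, 7346 (30.9%) differed between the cell types in limma's test, 3532 with the higher ratio in macrophages and 3814 with the lower, and for 5421 the mean signs were opposite. C5AR1 (difference -10.71, adjusted p = 2.4e-05), CD163 (-11.34; 0.000102) and FCGR1A (-9.45; 6.53e-06) fell in macrophages and had higher ratios in cancer cells, and CAV1 (7.17; 4.88e-06) and MYC (5.61; 1.29e-05) were higher in macrophages. CSF2 had a ratio of 4.06 ± 1.59 (SD, n = 5) in the cancer cells and CXCL10 of 4.13 ± 3.16 (n = 4), and their differences of 0.25 (adjusted p = 0.84) and 0.15 (0.939) did not pass the test, which does not show that they were equal. The cancer-cell arrays had up to 9870 outlier spots on 1 array, and with outlier spots kept 7548 genes differed.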

How the data were processed

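Labelled cRNA was hybridised to canine 2-colour arrays, and the deposited scanner files (Agilent Feature Extraction 10.7.3.1, per the submitters' processing notes) held intensity values and log10 ratios that the authors' software had background-subtracted and dye-normalised. By the dyes in the labels, every ratio was oriented with co-culture as the numerator and expressed as log2. The deposited log10 value table equalled these ratios within 0.0001, which settled the direction. Control and outlier spots were left out. Values of an array where neither channel was well above background were left out, and a pair needed both arrays, a detail added after the design. The brightest probe stood for a gene, tested if above background in at least 3 co-cultures. The mean of 5 pairs was tested with limma 3.58.1 (R 4.3.3) and Benjamini-Hochberg adjustment, after a test on simulated data. The test of macrophages against cancer cells used the same tool. Levels were Aquantile-normalised signals. Alternatives changed the background (normexp, offset 50), scaling, filter, dye, block and threshold. Symbols came from RefSeq (UU_Cfam_GSD_1.0) by accession for 1648 of 43603 probes. Of the 790 tested genes with a symbol, 280 had another measured probe and 77 of these differed in sign.

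Named genes were the 15 highest and 15 lowest means among called genes with a symbol that moved one way in all 5 co-cultures, the 5 widest SDs, and up to 4 called members of each list. Other list members were named after their values were seen. The members and lists were chosen with earlier results of these data known. Lists with values not given above were lipid handling (0 up, 3 down of 5), integrins and adhesion (2 up of 6), immediate early genes (2 up, 1 down of 3), receptor tyrosine kinase ligands (4 up, 3 down of 12), proteases (3 up, 2 down of 7), prostaglandins (1 up, 1 down of 4), lymphocyte markers (1 up, 2 down of 7), granulocyte markers (2 up, 2 down of 7) and oxidative phosphorylation (1 up of 2). All list counts, here and above, stand beside 20.8% of all genes called up and 27.1% called down. The macrophage arrays lay on slides 3 to 5, each slide holding whole pairs, and slide as a random block gave 14169 calls. The CMT-U27 macrophage pair was scanned on day 2 and the other macrophage pairs on day 1. All cancer-cell arrays were scanned on day 2 and lay on slides 1 to 3. Cell type thus cannot be fully told apart from scan day and slide in the test between cell types. Some genes are not reported here.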

Additional observations from a re-analysis of the deposited data

Results flagged for a closer look

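In 4 of 131 values tested, 1 co-culture lay far from the others by Dixon's criterion, which chance alone meets in about 1 of 20 groups. HSD11B1 stood at 4.49 with P114 and at -3.76 to -2.10 with the other lines. The CMT-W1 co-culture stood apart for the rest. It had -0.76 for LIFR, against -1.56 to -1.36 elsewhere. OAS1 stood at -1.93 there and at -0.81 to -0.41 in the other co-cultures, and SREBF1 at -2.48 against -0.76 to -0.28.

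The log2 ratio differed between macrophages and cancer cells for 7346 of 23765 genes (30.9%) in limma's test. Of 97 named genes with such a test, 73 differed, 34 with the higher ratio in macrophages and 39 with the lower. In 57 of those that differed the mean signs were opposite. Named genes were mostly picked for large macrophage ratios, so their share that differed cannot be read against that of all genes. Values are given for 66 of the 73. Differences below are macrophages minus cancer cells. Among surface and sensing genes of macrophages they were -11.34 for CD163, -10.71 for C5AR1, -9.45 for FCGR1A, -9.02 for TLR2, -8.09 for CD80, -7.97 for CD86, -7.49 for ANPEP and -7.11 for the secreted CXCL8. Smaller differences of the same sign were -6.66 for TLR4, -6.58 for ACKR3, -6.54 for CCR1, -4.73 for IL2RA, -4.58 for EDNRB, -2.49 for CXCR3 and -1.70 for TLR7. CXCL8 was not called in macrophages (0.56; adjusted p = 0.702 in limma's test), and its mean ratio in cancer cells was 7.67. Lysosomal, phagocyte, iron and lipid genes gave -8.85 for CTSS, -8.06 for CTSK, -8.04 for S100A8, -6.18 for SLC11A1, -5.95 for PLA2G7, -5.87 for FTH1, -5.00 for PPT1, -4.09 for HMOX1, -2.89 for CAT and -1.78 for CYBA.

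Junction and caveola genes went the other way, with 7.17 for CAV1, 6.29 for CGN, 4.93 for OCLN and 4.78 for CAV2. So did the Wnt receptor gene FZD6 (4.44) and the apoptosis-related gene UACA (4.40). To these came 4.0 for GJA1, 3.06 for SNAI2, 2.34 for BGN, 1.90 for TJP1 and 1.69 for CTNNB1. Proliferation, repair, actin and ribosomal protein genes had 5.61 for MYC, 4.83 for ASPM, 4.29 for BRCA1, 3.52 for APEX1, 3.46 for BRCA2, 3.39 for ACTG1 and 3.11 for RPS18. OCLN, ASPM and BRCA1 were well above background on 0 of 10 mono-cultured macrophage arrays, so their differences have no exact size. Next were 2.68 for SELENOH, 2.39 for RPL23, 1.92 for RPL27 and 1.76 for HSPA4. Secreted factors gave 6.10 for EDN1, 4.38 for PDGFA, 3.95 for KITLG and 2.31 for IL12A, with 2.15 for the receptor KIT and -3.13 for TNFSF10.

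The remaining genes with a higher ratio in macrophages were ABCC5 (4.88), CA9 (2.95) and PTGES2 (2.63). Those with a lower ratio were DHDH (-4.81), PDPN (-4.70), OAS1 (-4.26), PTGER4 (-3.06), KRT2 (-2.26), OAS3 (-2.17), TAPBP (-2.13), BAX (-2.10), CDKN1B (-1.49) and ABCC1 (-0.99). For 4 genes every measured co-culture moved one way in macrophages and the opposite way in cancer cells, but only 2 cancer-cell pairs were measured and the difference was not tested. These differences were -8.96 for CD209, -8.30 for CD36, -7.46 for CCL13 and 3.25 for FGF5.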

How the results depend on the processing

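Of 104 named genes that changed, 53 kept the call in all 19 alternatives, 51 lost it in at least 1 and 0 reversed. Calls kept were 87 with recomputed background and loess, 73 with median centring in its place, and 74 without a filter on dim probes. The number of genes called, 12306, was 6715 with recomputed background and median centring without loess (an alternative added after seeing the data), 7459 at an adjusted p under 0.01, and 11230 by the methods' t-test after Benjamini-Hochberg adjustment (9283 at the unadjusted threshold of the methods). Genes also 3-fold on every array, 1660, were 415 with recomputed background and loess, 164 with median centring in place of loess, and 3128 at 2-fold. Differences between cell types, 7346, were 4138 with recomputed background and median centring, and 4621 to 6534 with 1 line left out, the lowest without CMT-U27 and 4708 without P114. With the line as a block they were 7754. With the label number as a replicate block 11971 genes were called and 95 of the 104 kept their call. The numbers mark the arrays of a pair.

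Some means that were not called changed sign. CLU was -0.43 and CXCL8 -0.080 with recomputed background and median centring, and HSD11B1 0.11 (0.20 with loess). With 1 co-culture left out CLU ranged from -0.45 to 1.38, CXCL8 from -0.35 to 1.89, F3 from -0.45 to 2.10 and TMEM47 from -0.59 to 1.68.

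With recomputed background list medians were, first with loess and then with median centring, -2.48 and -2.58 for macrophage markers, -1.02 and -0.99 for chemokine receptors, 1.68 and 1.73 for caveolae and gap junctions, 0.84 and 0.97 for proliferation, 1.62 and 1.59 for Wnt genes, 0.91 and 0.66 for hypoxia and glycolysis, -0.27 and -0.30 for p53 and cell cycle inhibitors, -0.30 and -0.34 for drug transporters, and 0.047 and 0.073 for lymphocyte markers, whose main median of -0.64 changed sign. The lysosome median was -0.74 with loess and that of class I -0.66 with median centring. Restricted to probes above background on all 10 arrays, medians were -0.58 for cytokines, -1.73 for proteases, 0.015 for matrix genes, 0.57 for proliferation and -1.28 for stress genes. Without a filter on dim probes they were 0.24 for receptor tyrosine kinase ligands, 0.48 for prostaglandin genes and -0.49 for drug transporters. With the co-culture in Cy5 alone they were 0.47 for cytokines and -0.49 for drug transporters. With 1 co-culture left out the matrix median ran from -0.12 (without CMT-U309) to 0.72 and that of p53 genes from -0.88 (also without CMT-U309) to -0.55. The causes were not tested. With 5 co-cultures, the number of arrays limits the precision.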
